A study of Saccharomyces cerevisiae with 21 samples.

Results

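The RTA1-like family of the budding yeast Saccharomyces cerevisiae was described as 4 genes, RSB1, RTA1, PUG1 and YLR046C, out of 5449 yeast genes measured. They were taken by gene symbol, and each had 1 probe set on the Affymetrix yeast array. The family was chosen by the levels of RSB1 and RTA1 on these arrays, already known to be high in YPD cells given ISP1. Their values in YPD are therefore given as a description, with no test. Tests of the 4 genes are limited to arrays of cells in synthetic complete medium. The design text gives ISP1 as myriocin, which blocks serine palmitoyltransferase, the enzyme that begins sphingolipid synthesis.

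The 21 arrays formed 7 groups of 3. In the rich medium YPD (dextrose with peptone and yeast extract), cells received heat stress with ISP1 (group YPD+Heat+ISP1), ISP1 (YPD ISP1) or heat stress (YPD Heat), each for 45 min, or nothing (YPD ctrl). Cells in synthetic complete medium (SC), made of yeast nitrogen base, ammonium sulfate and a supplement of nutrients, received myristate with ISP1 (SC+myristate+ISP1, time not given in the labels), myristate for 45 min (SC Myristate), or nothing (SC ctrl). Myristate is a saturated fatty acid. The labels name no strain, temperature or dose, and do not say if control cells were given a solvent. For SC+myristate+ISP1 replicates 2 and 3, title and description differ in the number that follows ISP, and groups were taken from the titles. Separate cultures are nowhere stated for the replicates. The p-values therefore cover the spread between these arrays alone, and that spread may be technical.

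Values are log2 signals, so a difference of 1 is a doubling, and signals of different probe sets cannot be ranked against each other. Differences carry the standard error that limma gave for 3 arrays a group. Its p-values were adjusted by Benjamini-Hochberg over all 5449 genes. The median level of all genes lay between 10.21 and 10.33 on every array. Across genes, r between replicates was 0.993 to 0.998. All 4 genes lay above the background limit of 4.84 on all 21 arrays. HSP104, a heat shock disaggregase gene used to check the heat labels, averaged 14.14 ± 0.12 in YPD+Heat+ISP1 and 14.17 ± 0.10 in YPD Heat, against 12.64 ± 0.09 in YPD ISP1 and 12.05 ± 0.07 in YPD ctrl (SD, n = 3). It was also higher with myristate, where no heat is named. The means were 13.36 ± 0.02 in SC+myristate+ISP1, 13.25 ± 0.08 in SC Myristate and 12.50 ± 0.05 in SC ctrl.

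Members of this fungal family are membrane proteins that span the plasma membrane several times and are linked to the movement of lipids or lipid-like compounds. Rsb1 lowers the amount of sphingoid long-chain bases inside the cell, the building blocks that serine palmitoyltransferase starts, and gives resistance to them when they are added to the medium. Its gene is known to respond to drug-resistance transcription factors and to altered lipid asymmetry of the plasma membrane. Rta1 gives resistance to a toxic aminocholesterol, and Pug1 takes part in the uptake of protoporphyrin and the handling of heme. No function is established for the product of YLR046C.

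RSB1, the sphingoid base transporter gene, was highest in both YPD groups that received ISP1 and lowest in untreated SC cells. Its signal was 11.91, 12.15 and 12.07 in YPD+Heat+ISP1, and 12.04, 11.87 and 11.83 in YPD ISP1. It was 10.25, 9.86 and 10.11 in YPD Heat, and 10.61, 10.32 and 10.52 in YPD ctrl. The ISP1 arrays therefore lay more than 1 unit above all other YPD arrays, and the ranges of the 2 ISP1 groups overlapped. In SC the signal was 9.57, 9.70 and 9.94 with myristate and ISP1, 9.45, 9.47 and 9.55 with myristate, and 8.01, 8.47 and 8.50 in SC ctrl. Every SC ctrl array was below every other array of the series. From highest to lowest mean the order was YPD+Heat+ISP1, YPD ISP1, YPD ctrl, YPD Heat, SC+myristate+ISP1, SC Myristate and SC ctrl. Neighbours in that order overlapped for the first pair and for YPD Heat with SC+myristate+ISP1. The group means spanned 3.72, a 13.2-fold range, and 97 of the 5449 genes had a wider one. The median range over all genes was 0.91.

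RTA1, the aminocholesterol resistance gene, was high with ISP1, with heat, and highest with both. Its signal was 10.80, 10.84 and 11.00 in YPD+Heat+ISP1, and 9.34, 9.49 and 9.65 in YPD ISP1. It was 8.79, 8.59 and 8.61 in YPD Heat, and 6.97, 6.76 and 6.66 in YPD ctrl. No 2 of these 4 groups overlapped. In SC the signal was 8.08, 8.18 and 7.59 with myristate and ISP1, 7.82, 7.79 and 7.61 with myristate, and 6.24, 6.46 and 6.69 in SC ctrl. The untreated cells of both media were the low end, and their ranges overlapped, as did those of both myristate groups. The group means spanned 4.42, a 21.4-fold range, and 42 genes had a wider one.

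PUG1, the protoporphyrin uptake gene, was highest with ISP1 alone. Its signal was 7.64, 7.81 and 8.09 in YPD+Heat+ISP1, and 8.32, 9.10 and 9.01 in YPD ISP1. It was 6.52, 7.11 and 6.83 in YPD Heat, and 6.97, 6.92 and 7.10 in YPD ctrl. Both ISP1 groups in YPD stood clear of the other YPD arrays and of each other, whereas YPD Heat and YPD ctrl overlapped. In SC it was 6.56, 6.03 and 6.23 with myristate and ISP1, 6.04, 6.32 and 6.05 with myristate, and 5.39, 6.27 and 6.62 in SC ctrl. The 3 SC groups overlapped. SC ctrl replicate 1 was the lowest array of the series for PUG1, and the SD of that group, 0.63, was the largest of the 7. The group means spanned 2.71.

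YLR046C moved little. Its signal was 10.02, 10.20 and 10.23 in YPD+Heat+ISP1, and 9.71, 9.69 and 9.60 in YPD ISP1. It was 9.98, 9.92 and 9.95 in YPD Heat, and 9.34, 9.45 and 9.35 in YPD ctrl. Both heated groups were above both unheated ones. In SC it was 9.50, 9.71 and 9.50 with myristate and ISP1, 9.31, 9.58 and 9.44 with myristate, and 9.10, 9.44 and 9.36 in SC ctrl. The myristate group overlapped both others, which did not overlap each other. Its group means spanned 0.85, a 1.80-fold range, and 2948 genes had a wider one.

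**Figure D1:**
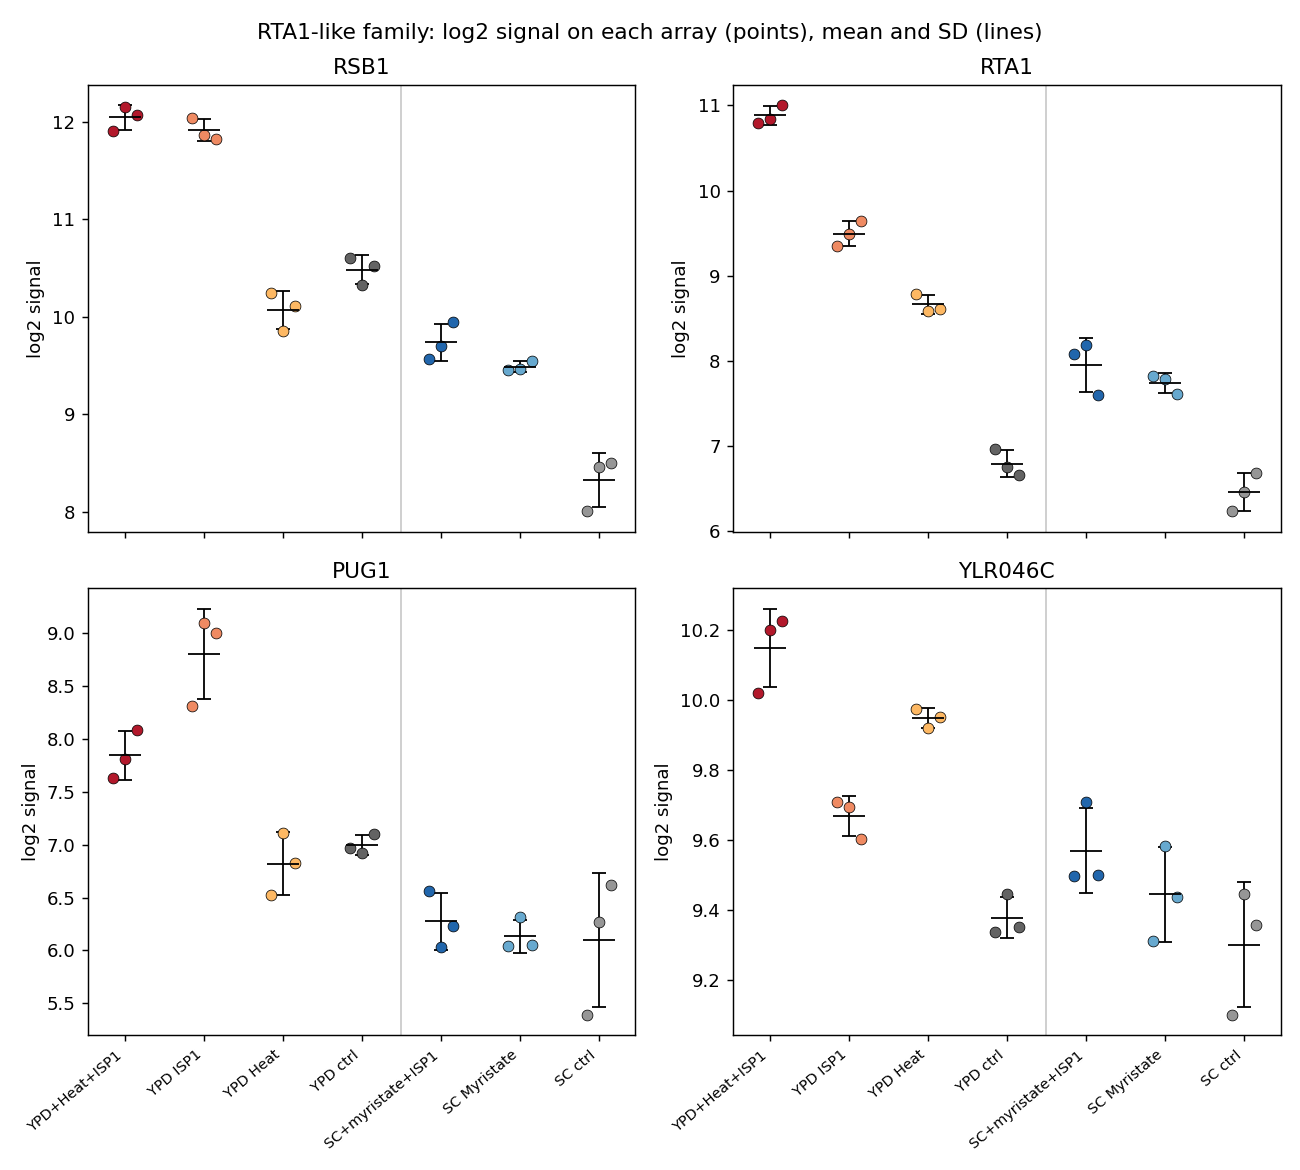
Log2 signal of RSB1, RTA1, PUG1 and YLR046C on each of the 21 arrays, in 7 groups of 3 (points), with the group mean and SD (lines); YPD groups are left of the grey line and SC groups right of it, and each panel has its own vertical scale. RSB1, RTA1 and PUG1 are highest in YPD groups with ISP1, at 12.04 ± 0.12, 10.88 ± 0.11 and 8.81 ± 0.43, and YLR046C spans less than 1 unit.

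The comparison of ISP1-treated with untreated cells in YPD asked what blocking sphingolipid synthesis does without heat, and its values are among those by which the family was chosen. RTA1 was higher by 2.70 ± 0.14, a 6.50-fold difference, and 16 of 5449 genes had a larger one. PUG1 was higher by 1.81 ± 0.25, with 87 genes above it, and RSB1 by 1.43 ± 0.13, with 159 above it. YLR046C was higher by 0.29 ± 0.09. The replicates of all 4 genes were higher without overlap, as were those of 29.9% of all genes.

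With heat as well, set against heat alone, ISP1-treated cells had 2.22 ± 0.14 more RTA1 and 1.97 ± 0.13 more RSB1 on the log2 scale. Only 2 genes had a larger difference than RTA1, and 7 a larger one than RSB1. PUG1 was higher by 1.02 ± 0.25 and YLR046C by 0.20 ± 0.09. All 4 genes were again higher without overlap between replicates, against 23.9% of all genes. The ISP1 difference with heat minus that without heat was 0.54 ± 0.18 for RSB1, -0.48 ± 0.19 for RTA1, -0.79 ± 0.36 for PUG1 and -0.09 ± 0.12 for YLR046C.

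Heat itself separated the genes. In YPD Heat against YPD ctrl, RTA1 was higher by 1.87 ± 0.14, a 3.65-fold difference, and YLR046C by 0.57 ± 0.09, whereas RSB1 was at -0.41 ± 0.13 and PUG1 at -0.18 ± 0.25. RTA1 and YLR046C were higher without overlap between replicates, as were 40.9% of all genes, and RSB1 was lower without overlap, as were 42.2%. When ISP1 was present in both groups, YPD+Heat+ISP1 against YPD ISP1, RTA1 was higher by 1.39 ± 0.14 and YLR046C by 0.48 ± 0.09. RSB1 was at 0.13 ± 0.13 and PUG1 at -0.96 ± 0.25. Replicates of RTA1 and YLR046C were higher without overlap (41.5% of all genes), and those of PUG1 lower (38% of all genes). Under quantile normalization over yeast probe sets PUG1 was at -0.57 in heat alone against control, and it ran from -0.32 to -0.02 when 1 array was left out. These comparisons share arrays with those of ISP1.

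Between YPD+Heat+ISP1 and YPD ctrl the differences were 4.09 ± 0.14 for RTA1, a 17.0-fold difference, 1.56 ± 0.13 for RSB1, 0.85 ± 0.25 for PUG1 and 0.77 ± 0.09 for YLR046C. For RTA1, 37 genes had a larger difference, and for RSB1 446 had. The replicates of all 4 genes were higher without overlap, as were those of 43.1% of all genes.

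**Figure D2:**
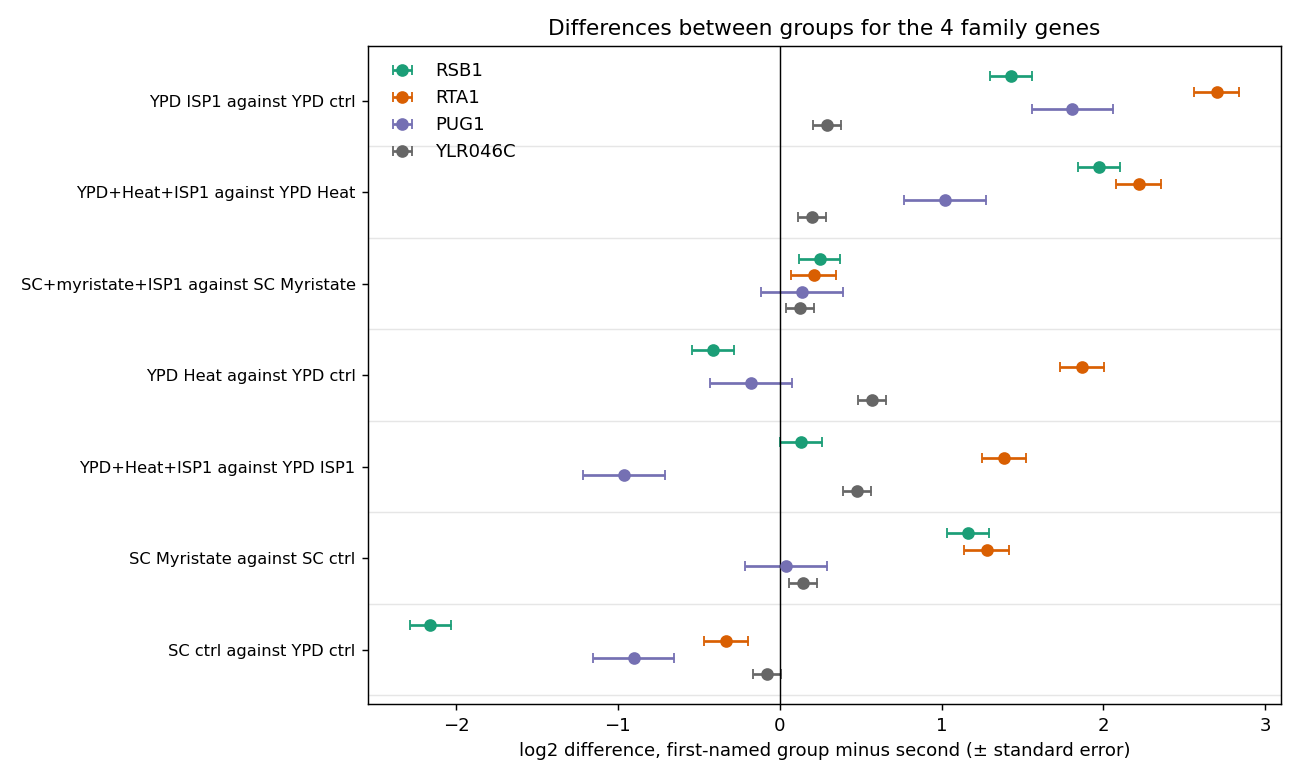
Log2 difference between groups for the 4 genes, first-named group minus second, with the standard error from limma (bars). ISP1 differences in YPD reach 2.70 for RTA1, while those under myristate in SC stay between 0.12 and 0.25, and both heat differences are at least 0.48 for RTA1 and YLR046C.

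Between the untreated media RSB1 differed most of the 4 genes. In SC ctrl against YPD ctrl, RSB1 was lower by 2.16 ± 0.13 on the log2 scale, a 4.46-fold difference, and 8 of 5449 genes had a more negative one. PUG1 was at -0.90 ± 0.25, RTA1 at -0.33 ± 0.14 and YLR046C at -0.08 ± 0.09, beside a median of -0.13 over all genes. RSB1 and PUG1 were lower without overlap between replicates, as were 46.2% of all genes. The sign of YLR046C turned, to 0.02, with quantile normalization or without SC ctrl replicate 1. As a measure of RNA quality, the 3' minus 5' signal of the control transcript SRB4 was 1.78 ± 0.12 in SC ctrl and 2.86 ± 0.02 in YPD ctrl (log2 ± SD, n = 3). That of ACT1 was 0.36 ± 0.01 in SC ctrl and 0.56 ± 0.04 in YPD ctrl. SPT15 went the other way, at 1.65 ± 0.10 in SC ctrl and 1.54 ± 0.17 in YPD ctrl. The part of RNA quality in the result was not tested.

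The values known to have led to the choice of the family came from YPD, so the genes were tested on the SC arrays. Set against untreated SC cells, cells given myristate were compared to ask how this fatty acid changes transcript levels. RTA1 rose by 1.28 ± 0.14 (adjusted p = 5.12e-07 from limma), to 7.74 ± 0.12 with myristate, against 6.46 ± 0.23 in SC ctrl (SD, n = 3). RSB1 rose by 1.17 ± 0.13 (adjusted p = 6.94e-07 from limma), to 9.49 ± 0.05 with myristate, against 8.33 ± 0.28 in SC ctrl. These were 2.43-fold and 2.24-fold differences, higher in 3 of 3 arrays than in every SC ctrl array, and 90 and 116 genes had larger ones. PUG1 did not pass, at 0.04 ± 0.25 (adjusted p = 0.906 from limma, 95% interval -0.49 to 0.57), nor did YLR046C, at 0.14 ± 0.09 (adjusted p = 0.180, interval -0.04 to 0.33). Over all genes 52.3% were called in this comparison, 26.6% as higher and 25.7% as lower, and 30.7% were higher without overlap between replicates. Without SC ctrl replicate 1, PUG1 was at -0.31, and both rises kept their calls without any 1 array (adjusted p of at most 8.09e-06 from limma). Arrays of the same number deviated together in this pair of groups, and with the replicate number as a block in a fit of only these arrays YLR046C passed (0.14, adjusted p = 0.0335 from limma).

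Adding ISP1 to myristate, against myristate alone, left no family gene past the test. RSB1 was at 0.25 ± 0.13 (adjusted p = 0.860 from limma, 95% interval -0.02 to 0.52) and RTA1 at 0.21 ± 0.14 (adjusted p = 0.943, interval -0.08 to 0.50). PUG1 was at 0.14 ± 0.25 (interval -0.39 to 0.67) and YLR046C at 0.12 ± 0.09 (interval -0.06 to 0.31). None had an unadjusted p under 0.05, the lowest being 0.071 for RSB1, which was also the only one of the 4 whose arrays were higher without overlap (8.53% of all genes). The ISP1 difference with myristate in SC minus that in YPD without heat was -1.18 ± 0.18 for RSB1, -2.49 ± 0.19 for RTA1 and -1.67 ± 0.36 for PUG1. These were not tested, since the YPD values chose the genes. Medium and myristate differ together between these groups, so their parts cannot be told apart, and the time of treatment is not given for SC+myristate+ISP1.

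Across all genes, in SC+myristate+ISP1 against SC Myristate, limma called 1 of 5449 genes, 0.0184%. An unadjusted p under 0.05 was found for 349, or 6.40% of all genes, little above the share that this threshold passes when nothing differs. The 1 gene was VHR1, a transcription factor gene of the response to biotin, at 9.77 with myristate and ISP1 and 9.30 with myristate (0.48 ± 0.08, adjusted p = 0.0363 from limma). No gene was called without any 1 of the SC Myristate arrays, or without SC+myristate+ISP1 replicate 2 or 3, and 2 were called without its replicate 1. VHR1 is also the gene whose levels over all arrays were most like those of RSB1. Against SC ctrl, cells with both agents had 1.49 ± 0.14 more RTA1 (adjusted p = 6.05e-08 from limma) and 1.41 ± 0.13 more RSB1 (adjusted p = 5.20e-08 from limma), higher in 3 of 3 arrays than in every SC ctrl array. YLR046C rose by 0.27 ± 0.09 (adjusted p = 0.0136 from limma), a call lost without SC ctrl replicate 1 (0.17, adjusted p = 0.102), without SC+myristate+ISP1 replicate 2 (0.20, adjusted p = 0.0837) and with only the arrays compared (adjusted p = 0.0689). PUG1 did not pass, at 0.18 ± 0.25 (adjusted p = 0.568 from limma), and was at -0.17 without SC ctrl replicate 1. In this comparison 56.9% of all genes were called, 30.2% as higher, and 31.7% were higher without overlap.

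RSB1 and RTA1 are reported targets of Pdr1 and Pdr3, the transcription factors of multidrug resistance, so 19 other reported targets were set beside them. In YPD ISP1 against YPD ctrl 14 of 19 rose and 5 did not pass, with a median of 0.69 beside -0.04 over all genes, of which 27.9% were called higher and 33.2% lower. Of the 5, HXT9 and HXT11 averaged below the background limit of 4.84 in both groups. GRE2, a reductase gene, rose by 1.76 ± 0.09, and the ABC transporter genes PDR15 and YOR1 by 1.70 ± 0.15 and 1.69 ± 0.07. ICT1, an acyltransferase gene, rose by 1.61 ± 0.07. In YPD+Heat+ISP1 against YPD Heat 16 of 19 rose and 3 did not pass (median 0.79, against 0.01 for all genes, 16.5% of which were called higher and 16.3% lower). YGR035C, an uncharacterised gene, rose by 2.56 ± 0.22 there, ICT1 by 1.81 ± 0.07 and CIS1 by 1.37 ± 0.16. IPT1, which makes the most complex yeast sphingolipid, rose by 1.33 ± 0.06. YGR035C and IPT1 were lower in heat alone, at -2.10 ± 0.22 and -0.94 ± 0.06 against YPD ctrl. In YPD+Heat+ISP1 against YPD ctrl YGR035C did not pass, at 0.46 ± 0.22 (adjusted p = 0.0626 from limma), and IPT1 was at 0.40 ± 0.06.

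Myristate against SC ctrl gave 16 rises among the same 19 genes and 3 that did not pass, with a median of 0.41 beside -0.01 over all genes, of which 26.6% were called higher and 25.7% lower. PDR15 rose by 2.16 ± 0.15, GRE2 by 1.84 ± 0.09, YGR035C by 1.53 ± 0.22 and the polyamine transporter gene TPO1 by 1.11 ± 0.08. When ISP1 was added to myristate none of the 19 passed (median 0.13, against 0.01). Between the untreated media, SC ctrl against YPD ctrl, 3 of the 19 rose, 11 fell and 5 did not pass, beside 18.9% and 40.9% of all genes. YGR035C fell by 2.67 ± 0.22 and SNQ2, an ABC transporter gene, by 0.77 ± 0.11, while PDR15 rose by 0.89 ± 0.15. Heat alone in YPD gave 9 rises, 4 falls and 6 that did not pass (39.8% and 40.9% of all genes). YGR035C changed by -2.10 ± 0.22. HXT11, a hexose transporter gene, changed by 2.41 ± 0.22, from 4.04 in YPD ctrl, below the background limit of 4.84. PDR15, GRE2 and YOR1, named above for ISP1, also rose in heat alone, by 1.87 ± 0.15, 1.63 ± 0.09 and 1.42 ± 0.07. ICT1, at -0.06 ± 0.07, did not pass.

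**Figure D3:**
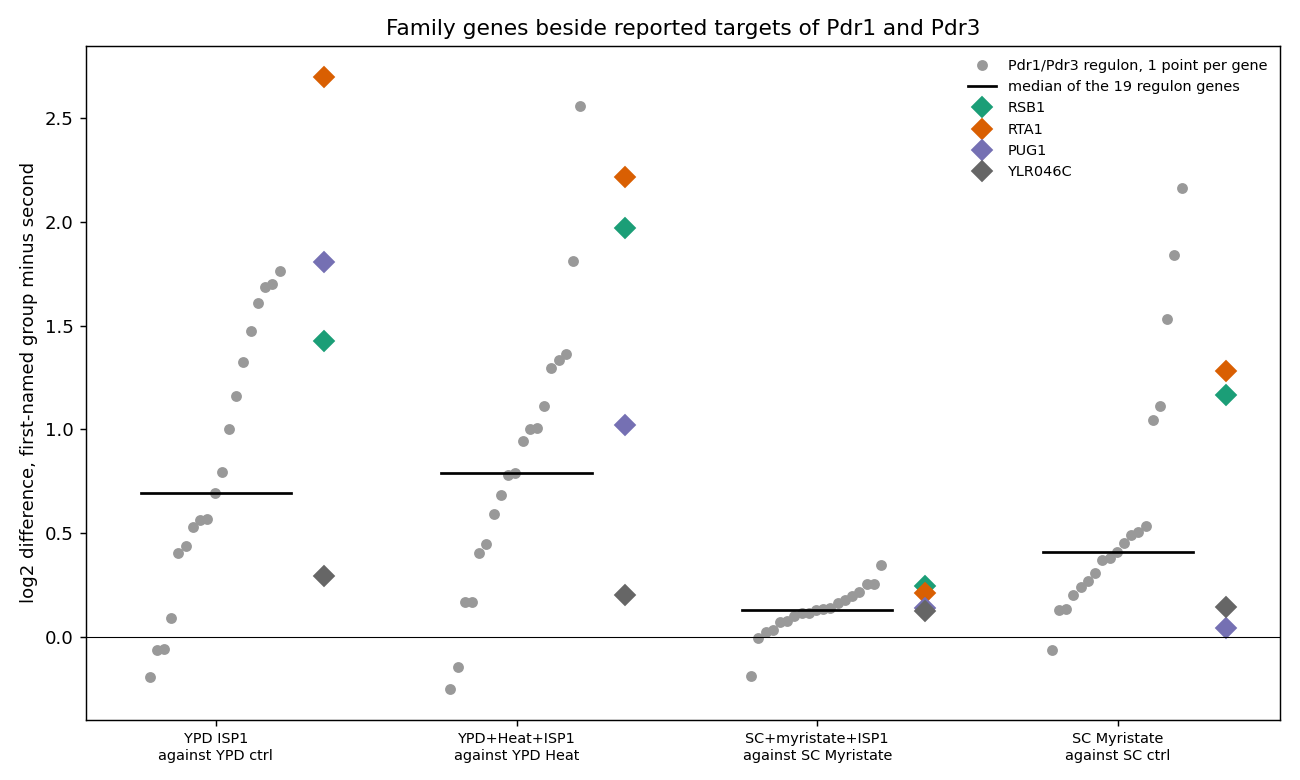
Log2 differences, first-named group minus second, of 19 reported targets of Pdr1 and Pdr3 (grey points, 1 per gene, ordered by value, with their median as a line) and of the 4 family genes (diamonds). RTA1 and RSB1 lie above the regulon's median in these 4 comparisons, which are ISP1 in YPD without and with heat, ISP1 with myristate, and myristate; in heat alone (not drawn) RSB1 was at -0.41, below the regulon's median of 0.20, and in SC ctrl against YPD ctrl at -2.16, below -0.20. Under myristate with ISP1 against myristate the median is 0.13.

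Genes for enzymes and regulators of long-chain bases, the compounds Rsb1 acts on, were another list. In YPD ISP1 against YPD ctrl 4 of 18 rose, 6 fell and 8 did not pass (27.9% and 33.2% of all genes). The ceramidase genes YPC1 and YDC1 rose by 1.30 ± 0.06 and 1.11 ± 0.06, HFD1, a fatty aldehyde dehydrogenase gene of long-chain base breakdown, by 0.93 ± 0.06, and ORM2, a regulator of serine palmitoyltransferase, by 0.71 ± 0.07. With heat, ISP1 gave 6 rises, no fall and 12 that did not pass, beside 16.5% and 16.3% of all genes. ORM2 led the rises at 0.76 ± 0.07, and YPC1 did not pass there, at -0.11 ± 0.06. Heat alone in YPD gave 7 rises, 9 falls and 2 that did not pass (39.8% and 40.9% of all genes). The 4 genes named for ISP1 rose in heat alone too. The differences were 2.46 ± 0.06 for YPC1, 2.25 ± 0.06 for YDC1, 1.71 ± 0.06 for HFD1 and 1.36 ± 0.07 for ORM2. Myristate against SC ctrl gave 6 rises, 3 falls and 9 that did not pass (26.6% and 25.7% of all genes), with YPC1 at 1.20 ± 0.06 and HFD1 at 0.84 ± 0.06.

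Genes of flippases, which move phospholipids across membranes, and of their subunits and kinases were a further list. RSB1 is known to respond to altered lipid asymmetry of the plasma membrane. In YPD ISP1 against YPD ctrl 1 of 10 rose, 1 fell and 8 did not pass, beside 27.9% and 33.2% of all genes. KIN82, a flippase kinase gene, rose by 0.86 ± 0.16, and LEM3, the subunit gene of Dnf1 and Dnf2, changed by -0.17 ± 0.06. In heat alone KIN82 changed by 2.20 ± 0.16 and LEM3 by -0.13 ± 0.06. Heat with ISP1 against heat gave 3 rises and no fall (16.5% and 16.3% of all genes). They were the flippase genes NEO1 at 0.27 ± 0.06 and DNF2 at 0.22 ± 0.06, and the subunit gene YNR048W at 0.22 ± 0.08. Myristate against SC ctrl gave 3 rises and no fall (26.6% and 25.7% of all genes), led by KIN82 at 1.00 ± 0.16.

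For PUG1 the heme genes and genes of low oxygen and sterol uptake were listed. In YPD ISP1 against YPD ctrl 3 of 10 heme genes rose, 3 fell and 4 did not pass, near the 27.9% and 33.2% of all genes. HEM13, coproporphyrinogen oxidase, changed by -0.77 ± 0.08 and HMX1, heme oxygenase, by 0.70 ± 0.11. Of 13 genes of low oxygen and sterol uptake, 2 rose, 3 fell and 8 did not pass, beside the same 27.9% and 33.2%. Those that rose were CYC7, by 2.34 ± 0.11, and COX5B, by 1.88 ± 0.08, both of the respiratory chain, and the sterol importer gene PDR11 was among the falls at -0.38 ± 0.09. Both respiratory genes also rose in heat alone, CYC7 by 3.86 ± 0.11 and COX5B by 2.80 ± 0.08, where PUG1 was at -0.18. HEM13 was at -1.02 ± 0.08 and HMX1 at 1.82 ± 0.11 in heat alone.

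The protein-coding genes listed next to each of the 4 in a RefSeq gene table were all measured, 8 in number. They were added after values had been seen, so the p-values given for them are a description. TOG1, a transcription factor gene, lies beside PUG1, and the locus tags place the pair on opposite strands, reading away from each other. TOG1 was 8.22, 8.27 and 8.33 in YPD+Heat+ISP1 and 8.23, 8.67 and 8.29 in YPD ISP1, against 7.21, 7.32 and 7.40 in YPD Heat and 7.42, 7.51 and 7.39 in YPD ctrl. Both ISP1 groups lay above all other YPD arrays, as for PUG1. TOG1 rose by 0.96 ± 0.11 in YPD ISP1 against YPD ctrl (adjusted p = 5.22e-07 from limma) and by 0.96 ± 0.11 in YPD+Heat+ISP1 against YPD Heat (adjusted p = 2.95e-06 from limma). It did not pass in YPD+Heat+ISP1 against YPD ISP1 (-0.12 ± 0.11, adjusted p = 0.311 from limma), where PUG1 was at -0.96 ± 0.25. With myristate and ISP1 against myristate it was at -0.06 ± 0.11 (adjusted p = 0.998 from limma). The other neighbour of PUG1, YER186C, changed by -0.28 ± 0.07 with ISP1 (adjusted p = 0.00145 from limma).

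SLI1, which encodes an acetyltransferase known to give resistance to ISP1, lies beside RTA1. The p-values of this and the other neighbours are likewise a description. It rose by 0.30 ± 0.08 in YPD+Heat+ISP1 against YPD Heat (adjusted p = 0.00888 from limma) and by 0.21 ± 0.08 in YPD ISP1 against YPD ctrl (adjusted p = 0.0340 from limma). In heat against control it was at 0.15 ± 0.08 (adjusted p = 0.0885), and in myristate against SC ctrl at 0.20 ± 0.08 (adjusted p = 0.0520). RPS0A, a ribosomal protein gene on the other side of RTA1, changed by -1.64 ± 0.07 in heat against control, where RTA1 was at 1.87 ± 0.14. The neighbours of RSB1 did not share its ISP1 values. RAT1, a nuclear exoribonuclease gene, changed by -0.53 ± 0.06 in YPD ISP1 against YPD ctrl and ETT1 by -0.22 ± 0.10 (adjusted p = 0.0646). Beside YLR046C, FRE8 rose by 1.05 ± 0.12 in heat against control and the microtubule polymerase gene STU2 changed by -0.55 ± 0.10.

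**Figure D4:**
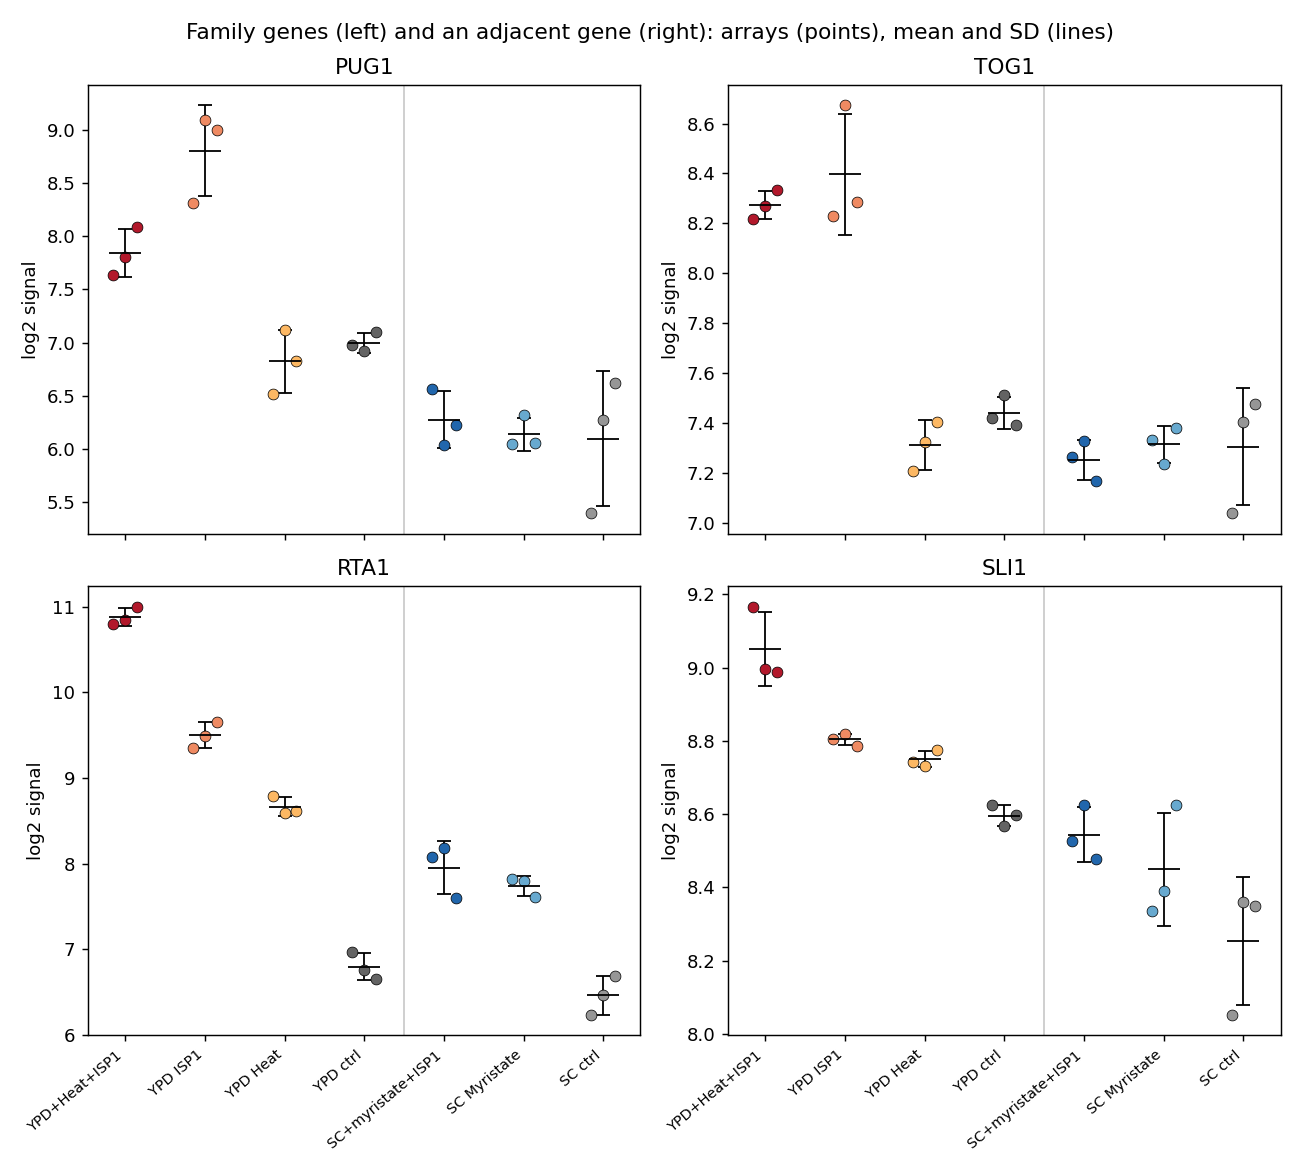
Log2 signal on each of the 21 arrays (points) with the group mean and SD (lines) for PUG1 and the adjacent TOG1 (top), and for RTA1 and the adjacent SLI1 (bottom); each panel has its own vertical scale. TOG1 is at or above 8.22 on all 6 YPD arrays with ISP1 and below 7.6 on the other 15 arrays, and SLI1 stays between 8.05 and 9.17.

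The genes most like each member were found by Pearson's r over the 21 arrays among 5357 genes with a mean above background, as a description, since arrays of 1 group share a treatment. For RSB1 they were VHR1 (r = 0.96), YKL222C, SEC1, SNQ2 and APM4 (0.95 to 0.94). For RTA1 they were GSC2, a glucan synthase gene (r = 0.98), ATG40, YMR262W, STE13 and YPK1, a kinase gene of sphingolipid signalling (0.98 to 0.97). For PUG1 they were BAP2, an amino acid permease gene (r = 0.95), NEJ1, YHI9, DPS1 and VHR1 (0.94 to 0.93). For YLR046C they were IWR1 (r = 0.97), MSS2, MSP1, BSD2 and NGL3 (0.97 to 0.96). VHR1 stood in the lists of both RSB1 and PUG1, and averaged 11.26 ± 0.14 in YPD+Heat+ISP1, 11.82 ± 0.04 in YPD ISP1, 9.78 ± 0.14 in YPD Heat and 10.09 ± 0.05 in YPD ctrl. GSC2 averaged 12.86 ± 0.17 in YPD+Heat+ISP1, 12.18 ± 0.04 in YPD ISP1, 11.36 ± 0.12 in YPD Heat and 10.38 ± 0.21 in YPD ctrl (SD, n = 3). RTA1 had the same order in YPD, and GSC2 was picked for its likeness to RTA1 on these arrays. In SC+myristate+ISP1 GSC2 averaged 11.38 ± 0.20, close to its YPD Heat mean of 11.36 ± 0.12, whereas RTA1, at 7.95, was below its own of 8.66.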

How the data were processed

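Total RNA was labelled with biotin for Affymetrix arrays, per the labels' protocols. The authors deposited log2 signals, 1 value per probe set and array. These were made with affy and RMA, per the submitters' processing notes, which give no version. RMA equalises the distribution of signals between arrays, which can hide a shift common to most genes. Of 10928 probe sets, 5498 carried 1 S. cerevisiae gene, named through GEO's platform annotation and a RefSeq gene table of assembly R64, which also gave the order of protein-coding genes along chromosomes. The highest-mean probe set was kept for each of 5449 genes. Probe sets annotated to another species, 1746 in number, gave the background limit, the 95th percentile of their means, 4.84.

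Contrasts came from 1 group-means model over 21 arrays (limma 3.58.1, R 4.3.3, 14 residual degrees of freedom). A gene was called at a Benjamini-Hochberg adjusted p under 0.05. The fit was tested on simulated data. The members and gene lists were chosen with earlier results of these data known. The flippase list first held CRF1, a symbol the annotation gives to another gene, and it was replaced by the subunit gene YNR048W after values had been seen. With CRF1 the counts in YPD ISP1 against YPD ctrl were 2 higher, 1 lower and 7 not called, and in YPD+Heat+ISP1 against YPD Heat 2 higher and 8 not called. Named genes are the 4 members, up to 4 called members of each list with the largest change in a comparison, the 5 genes most like each member, HSP104, and the adjacent genes, which were added after values had been seen. Arrays of the same replicate number, taken from the titles, deviated together in every pair for myristate against SC ctrl (correlations 0.63, 0.40 and 0.32), YPD ISP1 against YPD ctrl (0.53, 0.23 and 0.38), YPD+Heat+ISP1 against YPD Heat (0.43, 0.28 and 0.17) and YPD+Heat+ISP1 against YPD ISP1 (0.35, 0.13 and 0.25). Correlations were also all positive for YPD Heat against YPD ctrl (0.21, 0.20 and 0.06) and YPD+Heat+ISP1 against YPD ctrl (0.31, 0.07 and 0.25). No 2 arrays shared more than 0.404% of values. Alternatives were the replicate number as a block, other normalizations, array weights, another variance prior, leaving out dim genes, averaging probe sets, fitting only the arrays compared and leaving out each array in turn.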

Additional observations from a re-analysis of the deposited data

How the results depend on the processing

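The rises of RSB1 and RTA1 in both SC comparisons against SC ctrl kept direction and call under every alternative run, with adjusted p between 2.34e-08 and 0.000405 for RSB1 and between 6.73e-09 and 0.0005 for RTA1 in myristate against SC ctrl. PUG1 in that comparison turned sign with quantile normalization (-0.0531) and array weights (-0.1600), and ran from -0.3114 to 0.3046 when 1 array was left out. YLR046C gained a call there with the replicate block in a fit of only the arrays compared, an alternative added after seeing the data (0.1438). In myristate with ISP1 against SC ctrl, YLR046C lost its call with only the arrays compared (0.2685), and without 1 array it ran from 0.1684 to 0.3403 and PUG1 from -0.1729 to 0.4431. In SC ctrl against YPD ctrl, YLR046C turned to 0.0229 with quantile normalization and ran from -0.1490 to 0.0229 without 1 array. With myristate and ISP1 against myristate, PUG1 ran from -0.0048 to 0.2587 without 1 array, and the count of genes called, 1, became 3 with quantile normalization, 2 with median centring, 43 with array weights, 0 with the replicate block (also with only the arrays compared) or only the arrays compared, and 0 to 2 without 1 array. In YPD+Heat+ISP1 against YPD Heat the count, 1784, became 2960 with array weights. The cause of these changes was not tested. The replicate block changed no other call of a family gene. Of the 5 genes most like each member, Spearman's correlation shared 1 for RSB1, RTA1 and YLR046C and 0 for PUG1. The number of arrays limits the precision, and PUG1 in SC lay nearest to background.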
